A study of Mus musculus with 6 samples.

Results

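The serum amyloid A genes Saa1, Saa2 and Saa3 were followed across the epithelial cells, fibroblasts, macrophages and disease states of the C3(1)-Tag mouse mammary gland. These are 3 of the 31055 features counted in every library, and 3 of the 4 family members among those features, since Saa4 was listed with 0 unique molecular identifiers (UMIs, the tags that mark single captured transcripts). The members were chosen by their change between disease states and their level by cell group in earlier results of these data, so their levels, ratios and fold changes between states or cell groups are given as descriptions without a test. Tests are given only for other genes of the pathway.

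The droplet-based single-cell libraries came from female C3TAG mice, FVB/NJ animals in which the rat C3(1) promoter drives the SV40 large T antigen in the mammary epithelium. Prepuberty was the whole mammary gland at 5 weeks with normal ducts, DCIS was the whole gland at 14 weeks with intraepithelial neoplasia, and Tumor was a palpable tumor from mice over 18 weeks old, with 2 libraries in each state. All 6 libraries carried the transgene, and no gland without it was analysed here. Age, lesion and tissue sampled change together across the states, and the study's methods name a separate tumor dissociation kit where the labels give 1 digestion for every sample, so these cannot be told apart from the state. The methods also name a newer version of the droplet kit for Tumor 2 alone, where the labels give the older one for every sample, so that kit and the Tumor 2 library cannot be told apart.

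Serum amyloid A proteins are small apolipoproteins of the acute-phase response. In the liver, interleukin-1, interleukin-6 and tumor necrosis factor raise Saa1 and Saa2 through NF-kB, STAT3 and C/EBP factors, and the proteins travel on high-density lipoprotein. Mouse Saa3 is known for its production outside the liver, by macrophages, adipocytes and stromal cells, and the mammary epithelium is known to secrete a serum amyloid A protein into milk. The proteins bind the formyl peptide receptor Fpr2, Toll-like receptors and scavenger receptors such as Cd36 on leukocytes.

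The 3 genes lie in 1 cluster on chromosome 7 of the GRCm38 mouse genome, which spans 42316 bases from Saa3 to Saa2. Saa3 (ENSMUSG00000040026) lies on the minus strand at chr7:46711998-46715700, and Saa1 (ENSMUSG00000074115) on the same strand at chr7:46740497-46742980. Saa2 (ENSMUSG00000057465) lies on the plus strand at chr7:46751790-46754313, 8809 bases beyond Saa1, so that Saa1 and Saa2 point away from each other. The names Saa1 and Saa2 have been exchanged between older annotations, and the identifiers fix which gene is meant here. The 250 bases before each RefSeq start (GRCm38.p6) are printed 5′ to 3′ on the strand of the gene, because Saa1 and Saa2 had the same order of libraries in secretory luminal-like cells, though not the same balance in every cell group, while most Saa3 UMIs lay in fibroblast-like cells. Capitals mark matches to the C/EBP-type motif TTGCNNAA on either strand. The windows are chr7:46742981-46743230 on the minus strand for Saa1, chr7:46751583-46751832 on the plus strand for Saa2 and chr7:46715677-46715926 on the minus strand for Saa3.
Saa1: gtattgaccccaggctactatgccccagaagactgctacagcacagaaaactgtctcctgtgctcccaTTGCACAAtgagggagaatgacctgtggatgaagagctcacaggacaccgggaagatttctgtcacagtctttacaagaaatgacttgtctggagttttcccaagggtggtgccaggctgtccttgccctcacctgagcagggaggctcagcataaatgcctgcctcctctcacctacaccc
Saa2: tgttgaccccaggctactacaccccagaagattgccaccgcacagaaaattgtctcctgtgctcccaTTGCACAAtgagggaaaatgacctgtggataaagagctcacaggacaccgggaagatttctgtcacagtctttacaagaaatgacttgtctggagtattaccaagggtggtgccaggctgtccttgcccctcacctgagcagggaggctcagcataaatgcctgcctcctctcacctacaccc
Saa3: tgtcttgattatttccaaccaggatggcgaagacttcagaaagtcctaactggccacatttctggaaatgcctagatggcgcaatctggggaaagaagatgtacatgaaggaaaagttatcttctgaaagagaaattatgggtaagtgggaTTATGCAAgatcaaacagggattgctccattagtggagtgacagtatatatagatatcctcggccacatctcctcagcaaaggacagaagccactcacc

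The Saa1 and Saa2 windows were 94.8% identical, with 11 mismatches and 2 gaps over 251 aligned positions. Saa1 and Saa3 shared 48.2% of 276 aligned positions. Each of the 3 windows held 1 match to the C/EBP-type motif, from 182 to 175 bases before the start in Saa1, from 183 to 176 in Saa2 and from 99 to 92 on the opposite strand in Saa3; 9.56% of 32851 promoter windows of this length held a match. The NF-kB-type motif, GGG and CC with any 5 bases between them, matched in Saa1 and Saa2 and not in Saa3, and 45.8% of all windows held it. The STAT-type TTCNNNGAA and the AP-1-type TGANTCA were searched on both strands and TATAAA on the strand of the gene only. None of them had a match in the 3 windows, against 7.02%, 6.75% and 7.59% of all windows. A match is a stretch of letters and not a measured binding site. The Saa1 and Saa2 transcripts were 87.3% identical over 655 aligned positions, and 13.2% of the 50-base windows of Saa1 occurred unchanged in Saa2, but only 1.73% of its 91-base windows, so that few stretches of that length leave a read without a single source. Saa3 shared no window of either length with Saa1 or Saa2.

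The libraries held 23835 barcodes, of which 21553 cells and 237325500 UMIs remained after filtering, with 28527092 to 57287948 UMIs and a median of 6547 to 13631.5 UMIs per cell in a library. In all, 261 kept barcodes occurred in more than 1 library (524 cells, 2.43%). Cells were grouped into 24 clusters and named from markers. All 8 epithelial, fibroblast and macrophage markers were detected in their own class in every library. Whether the libraries of a state came from different animals is not given in the labels, so p-values measure the spread between libraries, which may be technical.

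Summed over all libraries, Saa1 and Saa2 came mainly from secretory luminal-like cells, the alveolar side of the luminal epithelium, and Saa3 from fibroblast-like cells, but the source of Saa1 and Saa2 differed between libraries. Of 10207 Saa1 UMIs over all libraries, 79.1% lay in epithelial-like cells, which were 34.1% of cells, and 71.1% lay in the secretory luminal-like subset alone, which was 7.32% of cells. Hormone-sensing luminal-like cells gave 6.11% of the Saa1 UMIs, fibroblast-like cells 13.1%, endothelial-like cells 4.49% and macrophage-like cells 0.235%. Of 4403 Saa2 UMIs, 78.1% lay in secretory luminal-like cells, 11.2% in endothelial-like cells and 2.66% in fibroblast-like cells. The DCIS libraries gave 7488 of the Saa1 and 3160 of the Saa2 UMIs and so weigh most in these shares. Secretory luminal-like cells held 83.4% of the Saa1 and 96.2% of the Saa2 UMIs of DCIS, and 51.4% and 54.1% in Prepuberty 1. In Prepuberty 2 they held 0.535% of Saa1 and 0.202% of Saa2, and endothelial-like cells held 428 of 748 Saa1 UMIs (57.2%) and 472 of 496 Saa2 UMIs (95.2%). Of 286782 Saa3 UMIs, 92.1% lay in fibroblast-like cells, which were 29.0% of cells, 3.97% in macrophage-like cells and 1.33% in epithelial-like cells.

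**Figure D1:**
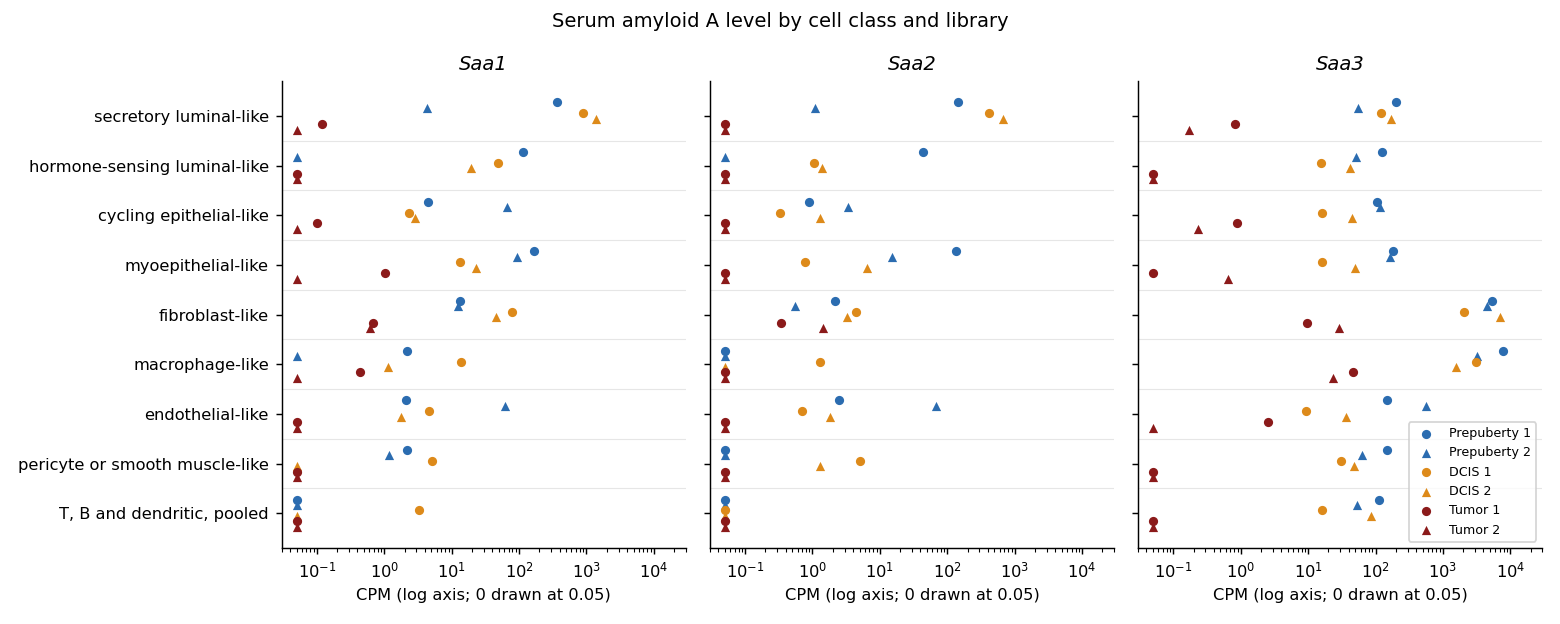
Levels of Saa1, Saa2 and Saa3 in CPM (UMIs in 1000000 UMIs of the cell group), on a log axis with 0 drawn at 0.05, 1 point for each cell group and library. Saa1 and Saa2 were highest in secretory luminal-like cells of the DCIS libraries and Saa3 was highest in fibroblast-like and macrophage-like cells, and in those cells the Tumor points lay below the points of the other libraries.

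The secretory luminal-like subset was led by Ltf, Csn3, Wfdc18, Trf, Lcn2 and Elf5, genes of milk proteins and of the alveolar factor Elf5, and held 171, 33, 158, 165, 706 and 345 cells in the 6 libraries, taken in the order Prepuberty 1, Prepuberty 2, DCIS 1, DCIS 2, Tumor 1 and Tumor 2. Levels are given as CPM, the UMIs of a gene in 1000000 UMIs of the cell group in that library. Saa1 reached 363 CPM in Prepuberty 1, 4.29 in Prepuberty 2, 887 in DCIS 1, 1365 in DCIS 2 and 0.118 in Tumor 1, and 0 UMIs in Tumor 2 allowed up to 0.641 CPM. Both DCIS libraries lay above both Prepuberty libraries, and both Tumor libraries lay below every other. As a ratio, the Prepuberty libraries differed from each other by more than Prepuberty 1 differed from either DCIS library, and Prepuberty 2 had 33 cells in the subset with 4 Saa1 UMIs, all in 1 cell. The 9 markers of the subset were themselves lower in Tumor, with summed levels of 13338 and 16778 CPM in Prepuberty, 14849 and 17306 CPM in DCIS and 3583 and 4219 CPM in Tumor, with the casein Csn2 at 0 in Tumor 1, and their part in the Saa1 and Saa2 levels was not tested.

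The transcripts were concentrated in few cells. At least 1 Saa1 UMI was found in 29.8% of secretory luminal-like cells of Prepuberty 1, 3.03% of Prepuberty 2, 15.2% of DCIS 1, 32.7% of DCIS 2 and 0.142% of Tumor 1. After each cell was thinned to 2000 UMIs the shares were 20.1%, 0%, 11.3%, 24.8% and 0%. In the lymphocyte-like and dendritic-like cells of the same libraries, which should lack the gene, 1 Saa1 UMI was found in 1.16% of 86 cells of DCIS 1 and none in the other libraries, at median depths of 1894 to 2719.5 UMIs per cell. The 10 cells with the most Saa1 held 68.5% of the subset's Saa1 UMIs in Prepuberty 1, 97.8% in DCIS 1 and 69.9% in DCIS 2. The leading cell of DCIS 1 carried 1032 Saa1 UMIs, 4.17% of its own transcripts, together with 739 Saa2 UMIs, 2.99%. The leading cell of DCIS 2 carried 561 Saa1 and 432 Saa2 UMIs, 1.82% and 1.40% of its transcripts, and that of Prepuberty 1 carried 217 Saa1 UMIs. Cells with at least 100 Saa1 UMIs numbered 2 in Prepuberty 1, 5 in DCIS 1, 12 in DCIS 2 and 0 in the other 3 libraries.

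**Figure D2:**
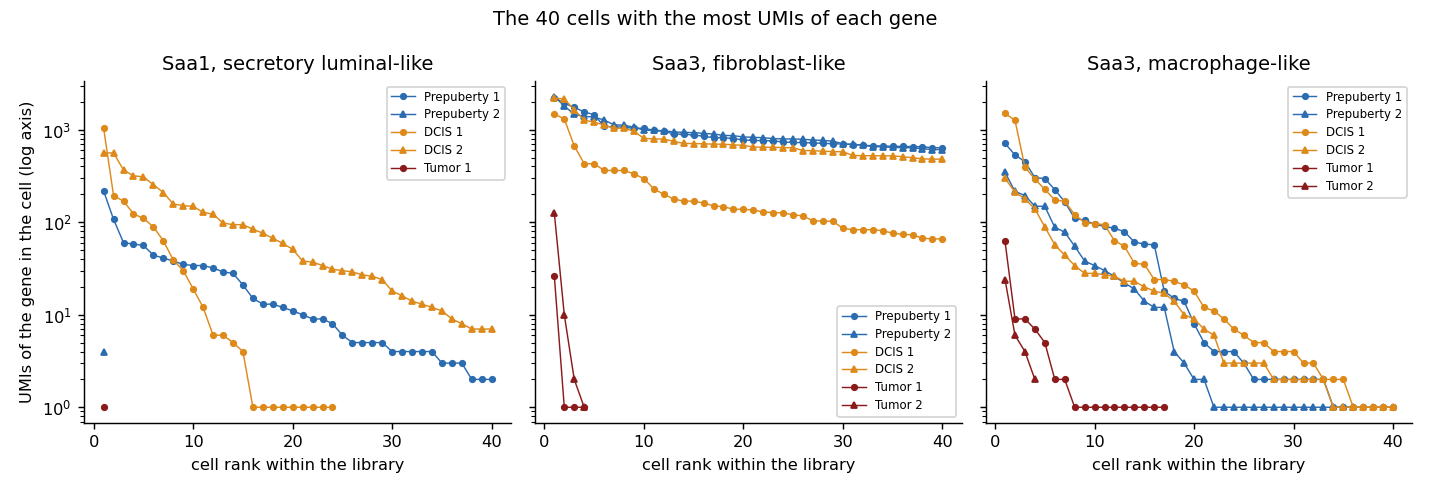
UMIs of the gene in a cell, on a log axis, against the rank of the cell, for up to 40 cells of each library with at least 1 UMI, with panels for Saa1 in secretory luminal-like cells and Saa3 in fibroblast-like and macrophage-like cells. Saa1 fell steeply with rank from up to 1032 UMIs in DCIS 1, whereas 29 to 285 fibroblast-like cells of each library outside Tumor carried at least 100 Saa3 UMIs, and in both Saa3 panels the Tumor lines end first.

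Saa2 followed Saa1 in this subset. Its level was 144 CPM in Prepuberty 1, 1.07 in Prepuberty 2, 413 in DCIS 1 and 677 in DCIS 2, with 0 UMIs in both Tumor libraries. The order of the libraries was that of Saa1, but 739 of the 888 Saa2 UMIs of DCIS 1 lay in 1 cell. The place of DCIS 1 above Prepuberty 1 rested on that cell. Among cells with a Saa2 UMI, 87.1% in Prepuberty 1, 83.3% in DCIS 1 and 94.4% in DCIS 2 also had a Saa1 UMI; among cells with a Saa1 UMI, 52.9%, 41.7% and 63.0% had a Saa2 UMI. Cells with a Saa1 UMI were also deeper, with medians of 23092 against 5330.5 UMIs in Prepuberty 1, 21782.5 against 8877 in DCIS 1 and 27849.5 against 10847 in DCIS 2, and the part of depth in these shares was not tested.

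The balance of the paired genes differed between cell groups. Saa1 made up 71.6% of the summed Saa1 and Saa2 UMIs of secretory luminal-like cells in Prepuberty 1 (exact 95% binomial interval 69.2 to 73.9), 68.3% in DCIS 1 (66.5 to 70.0) and 66.8% in DCIS 2 (65.7 to 68.0). In hormone-sensing luminal-like cells the share was 72.4% in Prepuberty 1 (68.8 to 75.9), where both luminal subsets overlapped, and 97.9% and 93.4% in DCIS 1 and 2, which rested on 2 and 5 Saa2 UMIs. Fibroblast-like cells gave 86.1% in Prepuberty 1 (81.9 to 89.6), 95.7% in Prepuberty 2 with 9 Saa2 UMIs, 94.6% in DCIS 1 (92.1 to 96.5) and 93.4% in DCIS 2 (90.7 to 95.5), above the secretory luminal-like share in each of the 3 libraries where both were counted. Endothelial-like cells of Prepuberty 2 gave 47.6% (44.2 to 50.9), the lowest share of the groups set out here. The intervals cover counting error only, and few cells carried much of each sum. UMIs mark transcripts at their 3′ ends, so these shares were not divided by transcript length.

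**Figure D3:**
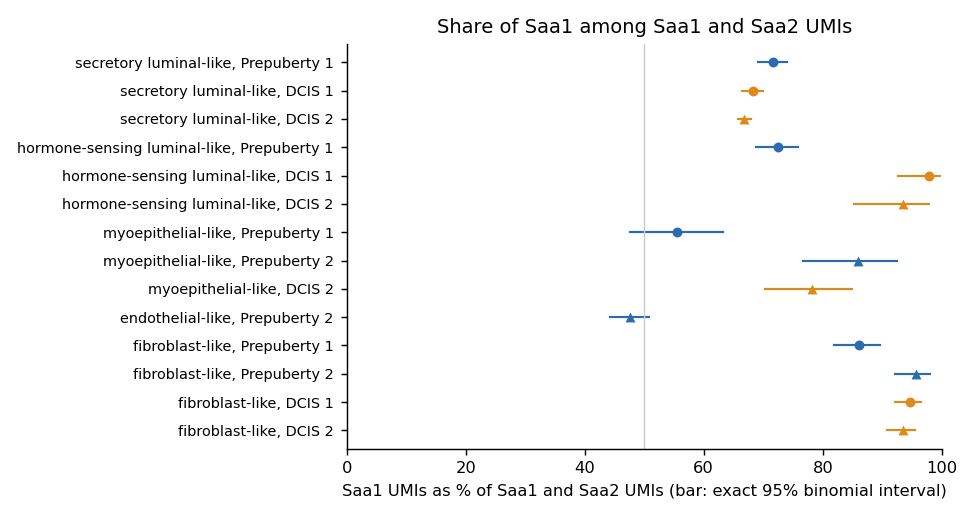
Share of Saa1 in the summed Saa1 and Saa2 UMIs, in percent, by cell group and library, for sums of at least 50 UMIs of the 2 genes together; bars are exact 95% binomial intervals and the grey line marks an equal share. Fibroblast-like cells lay between 86.1% and 95.7%, secretory luminal-like cells between 66.8% and 71.6%, and endothelial-like cells of Prepuberty 2 at 47.6%.

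Within the epithelium the secretory luminal-like subset held 64.6% of the Saa1 UMIs of epithelial-like cells in Prepuberty 1 with 21.3% of the cells, 93.5% in DCIS 1 with 11.6% and 97.9% in DCIS 2 with 16.3%. For Saa2 it held 66.0%, 99.2% and 99.2%. Hormone-sensing luminal-like cells, the estrogen-responsive side of the luminal epithelium, numbered 293, 40, 137, 295, 10 and 39 in the order of libraries above. Saa1 reached 116 CPM in these cells in Prepuberty 1, 48.5 in DCIS 1 and 19.5 in DCIS 2, with 0 UMIs in Prepuberty 2 and both Tumor libraries. The hormone-sensing subset was the next highest named subset in each of the 3 libraries, at lower levels in DCIS than in Prepuberty 1, and a single cell carried 214 of its 460 Saa1 UMIs in Prepuberty 1 and 81 of 93 in DCIS 1. Prepuberty 2 had only 41 Saa1 UMIs in 153 epithelial-like cells, of which 20 lay in the 7 cycling cells (66.6 CPM, with 19 of the UMIs in 1 cell), 17 in cells that met no subset's markers and 4 in secretory luminal-like cells. Saa2 in hormone-sensing cells was 44.0 CPM in Prepuberty 1 and 1.04 and 1.38 CPM in DCIS 1 and 2.

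The transgene transcript itself was counted, and secretory luminal-like cells with and without a T-antigen UMI both held Saa1. Saa1 was 309 CPM in 27 cells with and 389 CPM in 144 cells without a T-antigen UMI in Prepuberty 1, 462 in 47 and 1209 in 111 cells in DCIS 1, and 1025 in 53 and 1622 in 112 cells in DCIS 2. Cells without a T-antigen UMI had the higher level in each of the 3 libraries, but in DCIS 1 a single cell held 1032 of their 1481 Saa1 UMIs. A Saa1 UMI was found in 55.6%, 14.9% and 41.5% of cells with a T-antigen UMI against 25%, 15.3% and 28.6% of cells without. Over all epithelial-like cells the level with a T-antigen UMI was lower in Prepuberty 1 and DCIS 1 (99.7 against 125 and 63.9 against 164 CPM). In DCIS 2 it was higher (336 against 263 CPM). The secretory luminal-like cells without a T-antigen UMI were also shallower, with medians of 5798.5, 8252 and 10353.5 UMIs against 33779, 18463 and 25762, so absence of a T-antigen UMI does not show absence of the transgene's transcript.

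Over all epithelial-like cells, Saa1 was 119 CPM in Prepuberty 1, 17.2 in Prepuberty 2, 123 in DCIS 1, 283 in DCIS 2, 0.0933 in Tumor 1 and 0 in Tumor 2. Saa2 was 46.0, 0.841, 53.8 and 138 CPM in the Prepuberty and DCIS libraries and 0 in both Tumor libraries. For both genes DCIS and Prepuberty did not overlap, but DCIS 1 lay just above Prepuberty 1, and both Tumor libraries lay below all others. A single cell of DCIS 1 held 1032 of its 2041 Saa1 UMIs and 739 of its 895 Saa2 UMIs. The separation of DCIS 1 from Prepuberty 1 rested on that cell for both genes. The pooled DCIS level was 1.94 times the pooled Prepuberty level for Saa1 (95% interval from counting 1.84 to 2.05) and 2.42 times for Saa2; without Prepuberty 1 the ratios were 11.6 and 113, and without DCIS 2 the Saa1 ratio was 1.19. The Saa1 level in DCIS was 3438 times that in Tumor (1342 to 12621), which rested on 4 Saa1 UMIs in the Tumor libraries. Saa2 was at least 2169-fold lower in Tumor than in DCIS and at least 895-fold lower than in Prepuberty, set against a floor of 3 UMIs over the Tumor group. The bound against Prepuberty rested on Prepuberty 1, which held 606 Saa2 UMIs against 2 in Prepuberty 2. In the secretory luminal-like subset alone the DCIS level was 4.30 times the Prepuberty level for Saa1 and 5.28 times for Saa2, and without Prepuberty 1 the Saa1 ratio was 273.

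In the edgeR model over all 13392 genes tested in epithelial-like cells, the log2 change from Prepuberty to DCIS was 1.63 (SE 0.89) for Saa1 and 2.02 (SE 1.2) for Saa2. From DCIS to Tumor it was -12.00 (SE 1.48) and -14.11 (SE 2.38), and from Prepuberty to Tumor -10.37 (SE 1.42) and -12.10 (SE 2.35). The values for Saa2 against Tumor depend on the prior count and are no bound. All 3 members were lower in both Tumor libraries than in both DCIS libraries, a separation seen in this direction for 14.6% of all genes tested, and lower than in both Prepuberty libraries, seen for 17.5%. Saa1 and Saa2 were higher in both DCIS than in both Prepuberty libraries, as were 22.4% of all genes, though for DCIS 1 this rested on the single cell named above. Saa3 was lower, as were 31.8%. Leaving out Prepuberty 1 moved the Saa1 change from Prepuberty to DCIS to 3.82 and that of Saa2 to 7.09, leaving out Prepuberty 2 moved them to 0.82 and 1.11, and leaving out DCIS 2 moved them to 0.83 and 1.11.

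Saa3 in epithelial-like cells was low and in 3 libraries lay within the counting interval of cells taken as a background. It was 133, 194, 29.3, 68.6, 0.956 and 0.233 CPM in the order of libraries above. The pooled lymphocyte-like and dendritic-like cells, taken as that background, held 111, 52.8, 16.2 and 85.7 CPM in the Prepuberty and DCIS libraries and 0 UMIs in both Tumor libraries. The value of Prepuberty 1 rested on 6 UMIs in 17 cells. The epithelial level lay within the counting interval of these cells in Prepuberty 1, DCIS 1 and DCIS 2 (intervals 40.9 to 243, 5.27 to 37.9 and 50.8 to 135 CPM) and above it in Prepuberty 2 (34.8 to 76.8 CPM). Secretory luminal-like cells, at 119 CPM in DCIS 1 and 169 CPM in DCIS 2, lay above these intervals, and at 199 CPM in Prepuberty 1 and 54.7 CPM in Prepuberty 2 they did not. All 8 fibroblast markers were detected in the epithelial-like cells of every library, with summed levels of 182 and 262 CPM in Prepuberty, 61.4 and 140 in DCIS and 52.6 and 73.6 in Tumor, and their part in epithelial Saa3 was not tested.

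In fibroblast-like cells Saa3 was high in the Prepuberty and DCIS glands and low in the tumors. It reached 5320 CPM in 2093 cells of Prepuberty 1, 4485 CPM in 1697 cells of Prepuberty 2, 2085 CPM in 642 cells of DCIS 1 and 6994 CPM in 1293 cells of DCIS 2. In Tumor it was 9.73 CPM in 246 cells and 28.6 CPM in 285 cells. Prepuberty and DCIS overlapped, and both Tumor libraries lay below all 4. A Saa3 UMI was found in 75.6%, 47.9%, 31.0% and 45.6% of the cells before Tumor and in 1.63% and 1.40% in Tumor, and after thinning to 2000 UMIs in 44.7%, 25.5%, 19.2% and 33.2% against 0.422% and 1.11%. The lymphocyte-like and dendritic-like cells had a UMI in 35.3%, 12.7%, 4.65% and 17.2% before Tumor and in none in Tumor, at median depths of 1894 to 2719.5 UMIs against 6812 to 14482 in the fibroblast-like cells.

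Single fibroblast-like cells devoted much of their RNA to Saa3. The leading cells of Prepuberty 1 and 2 and DCIS 1 and 2 carried 2213, 2278, 1483 and 2188 UMIs, which was 10.7%, 17.1%, 7.74% and 16.7% of their transcripts. Cells with at least 100 Saa3 UMIs numbered 285, 155, 29 and 151 in these libraries, and 0 and 1 in Tumor. The Tumor values rested on 1 cell each, which held 26 of 29 UMIs in Tumor 1 and 125 of 138 in Tumor 2.

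Not every fibroblast-like cluster held the same amount. The cluster led by Il33, Cyp7b1 and Fgf7, of which Saa3 and the long pentraxin Ptx3 were themselves leading genes, held 42.7% of all Saa3 UMIs and had 6800, 8233, 4561 and 17107 CPM before Tumor. The cluster led by Mmp11, Cthrc1 and Lrrc15, genes of matrix remodelling, held 34.2% and had 10574, 25402, 1980 and 17962 CPM. The clusters led by Ccl2, Il1rl1 and Cxcl5 (2493, 839, 1172 and 1431 CPM) and by Pi16, Dpt and Gsta1 (1476, 898, 362 and 2370 CPM) were lower than both within each of the 4 libraries. In Tumor none of these 4 clusters passed 64.2 CPM. A further fibroblast-like cluster of 166 cells, led by Cxcl12 and Clec3b and with 0 cells in Tumor, held only 126 Saa3 UMIs (0.0439%). The SAA genes were left out of the genes used for clustering, but genes that vary with them were not, so the order of the clusters is a description.

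**Figure D4:**
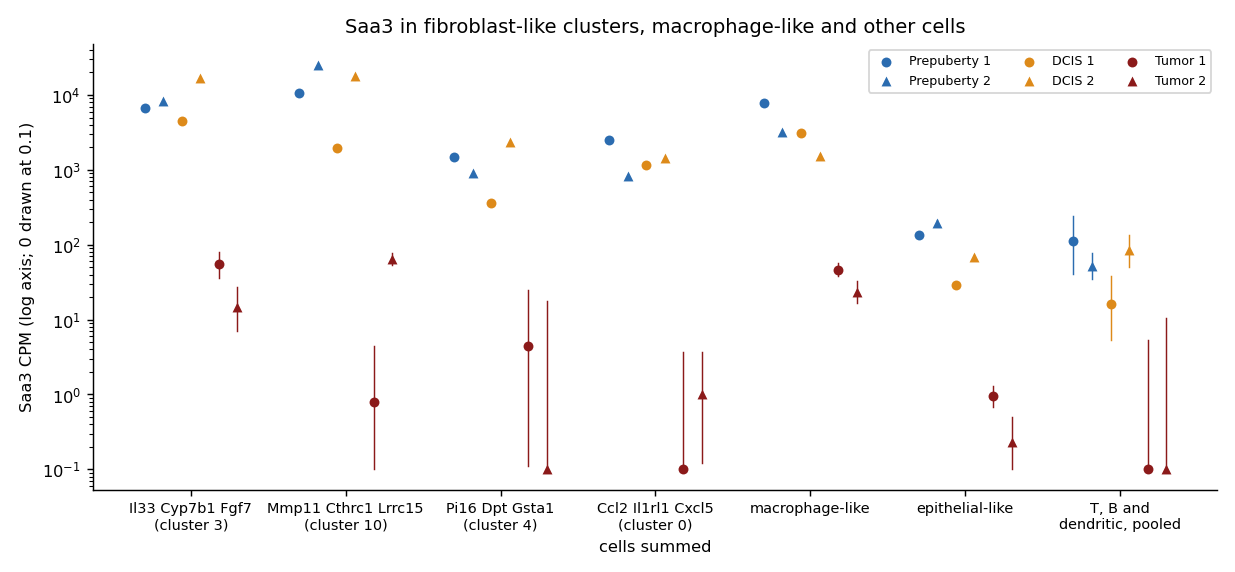
Saa3 level in CPM on a log axis with 0 drawn at 0.1, by library, for 4 fibroblast-like clusters, macrophage-like cells, epithelial-like cells and the pooled T-like, B-like and dendritic-like cells; bars are exact 95% Poisson intervals, cut off at the drawn 0. The 4 fibroblast-like clusters drawn lay between 362 and 25402 CPM in the Prepuberty and DCIS libraries and at or under 64.2 CPM in the Tumor libraries.

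The pooled DCIS level of fibroblast Saa3 was 1.05 times that of Prepuberty, 243 times that of Tumor (209 to 285, an interval that leaves out the spread between libraries), and the Prepuberty level was 232 times that of Tumor. Among fibroblast-like cells without a T-antigen UMI, a choice made after seeing the data, the last ratios were 536 and 513, since 1 cell with such UMIs carried most of the Saa3 of Tumor 2. The edgeR log2 change over 12101 genes was 0.10 (SE 0.60) from Prepuberty to DCIS, -8.64 (SE 0.84) from DCIS to Tumor and -8.54 (SE 0.84) from Prepuberty to Tumor; without DCIS 2 the first was -1.0, and with the replicate number as a block -0.18 (SE 0.50). Saa1 in these cells was low, at 13.2, 12.4, 79.2, 45.8, 0.671 and 0.621 CPM, with both DCIS libraries highest and a log2 change of 2.51 (SE 0.39) from Prepuberty to DCIS and -7.31 (SE 0.55) from DCIS to Tumor. Saa2 was at most 4.48 CPM. Saa1 and Saa2 were higher in both DCIS than in both Prepuberty libraries, as were 14.8% of all genes tested. All 3 members were lower in both Tumor than in both DCIS libraries, a separation found in this direction for 12.7% of all genes tested, and lower than in both Prepuberty libraries (11.9%), except Saa2, whose Tumor 2 level of 1.45 CPM lay between the Prepuberty libraries. All 8 epithelial markers were detected in fibroblast-like cells of every library, with summed levels of 58.9 and 17.5 CPM in Prepuberty, 85.8 and 69.9 in DCIS and 592 and 176 in Tumor, and their part in these values was not tested.

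Macrophage-like cells also carried Saa3. The level was 7747 CPM in 99 cells of Prepuberty 1, 3193 in 83 cells of Prepuberty 2, 3121 in 245 cells of DCIS 1, 1540 in 169 cells of DCIS 2, 46.6 in 424 cells of Tumor 1 and 23.6 in 187 cells of Tumor 2. Both DCIS libraries lay below both Prepuberty libraries, DCIS 1 by little, and both Tumor libraries lay below all others. A UMI was found in 50.5%, 43.4%, 25.3%, 37.3%, 4.01% and 2.14% of cells, and after thinning in 41.0%, 27.5%, 17.9%, 27.1%, 1.80% and 1.5%, against the same lymphocyte-like and dendritic-like background given for fibroblasts. The signal came from few cells: those with at least 100 UMIs numbered 9, 5, 8 and 4 before Tumor and 0 in Tumor, and the leading cell of DCIS 1 carried 1495 Saa3 UMIs, 9.58% of its transcripts.

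The pooled DCIS level in macrophage-like cells was 0.469 times that of Prepuberty and 68.1 times that of Tumor, and the Prepuberty level was 145 times that of Tumor. The edgeR log2 change over 7819 genes was -1.15 (SE 0.63) from Prepuberty to DCIS, -6.57 (SE 0.80) from DCIS to Tumor and -7.72 (SE 0.84) from Prepuberty to Tumor; without Prepuberty 1 the first was -0.11 and without DCIS 2 -0.69. Saa1 and Saa2 were too low in these cells to be tested, with 24 Saa1 UMIs over all libraries. Of all genes tested, 25.3% were lower in both DCIS than in both Prepuberty libraries, 12.4% lower in both Tumor than in both DCIS libraries and 12.2% lower than in both Prepuberty libraries, as Saa3 was. Fibroblast markers summed to 197 and 61.5 CPM in the macrophage-like cells of Prepuberty, 46.5 and 58.7 in DCIS and 52.3 and 33.5 in Tumor, with Col1a1 and Pdgfrb at 0 in Prepuberty 2 and Col1a1 at 0 in DCIS 2.

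Listed genes were compared between cells with and without a UMI of the member, as a description within each library, and the genes named here were chosen after their values were seen. Among secretory luminal-like cells, Serpina3n, which encodes an acute-phase protease inhibitor, was 2.87 times as high in cells with a Saa1 UMI in Prepuberty 1, 6.14 times in DCIS 1 and 3.57 times in DCIS 2. The calgranulin S100a8 was 3.54, 2.04 and 4.61 times as high, and complement factor Cfb 1.54, 3.0 and 1.88 times. The orosomucoid Orm1 was 4.14 and 19.2 times as high in Prepuberty 1 and DCIS 1 and had 0 UMIs in the cells without Saa1 in DCIS 2. Lcn2 was 1.02, 1.82 and 1.43 times as high. Aldh1a3, a gene of luminal progenitors and 1 of the 9 markers listed for the subset, though not 1 of the 4 that named its cluster, went the other way, at 0.263, 0.334 and 0.334 times. Among fibroblast-like cells with a Saa3 UMI, Lcn2 was 1.85, 2.68, 2.88 and 4.19 times and Lbp, the lipopolysaccharide binding protein, 1.26, 2.21, 1.92 and 2.57 times as high in the Prepuberty and DCIS libraries. In macrophage-like cells with a Saa3 UMI, the C/EBP factor Cebpd was 1.44, 2.72, 1.55 and 2.07 times as high. Cells with a UMI were the deeper cells in the groups given above, so these folds compare CPM and not shares of cells.

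The likeness of each gene to the members was taken over 114 sums of a cluster in a library, among 11919 genes, as Pearson's r of log2(CPM + 1); sums of 1 library share its depth and free RNA, and the values are a description. The genes most like Saa1 were Csn1s2a (r = 0.60), the antimicrobial lectin Reg3g (0.57), Csn1s1 (0.53), Wap (0.53) and Csn2 (0.51), so 4 of the leading 5 encode milk proteins. Lbp followed at 0.49. Saa2 was likewise most like Csn1s2a (0.67), Wap (0.66) and Csn2 (0.59). The genes most like Saa3 were the chemokines Ccl2 (0.81), Ccl8 (0.80) and Ccl7 (0.78) and the stromelysin Mmp3 (0.77). Between members r was 0.77 for Saa1 and Saa2, 0.57 for Saa1 and Saa3 and 0.33 for Saa2 and Saa3. These values moved with the CPM added before the log: with 10 in place of 1, r was 0.81, 0.46 and 0.19, 5 of the 10 genes most like Saa1 and 5 of the 10 most like Saa3 were shared with the lists above, Reg3g was at rank 9 and Lbp was not among the 10 most like Saa1.

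The other genes of the acute-phase pathway were taken from 6 lists of 77 entries in all, chosen with earlier results of these data known, and tested with edgeR's quasi-likelihood test with Benjamini-Hochberg adjustment over all genes of the cell class. Between Prepuberty and DCIS, 0 of 59 listed genes tested passed in epithelial-like cells (DESeq2 called 2), beside 0% of all genes. It was 0 of 53 in fibroblast-like cells (DESeq2 called 0), beside 0%, and 0 of 51 in macrophage-like cells (DESeq2 called 1), beside 0.128%. An unadjusted edgeR p under 0.05 was found for 8, 10 and 11 of them. Among all genes tested it was found for 1674 of 13392, 1192 of 12101 and 824 of 7819. The unadjusted results included interleukin-6, Il6, in fibroblast-like cells, at 133 and 95.5 CPM in Prepuberty and 364 and 345 CPM in DCIS (log2 change 1.85, SE 0.51, edgeR adjusted p = 0.489).

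In epithelial-like cells, 9 of 19 acute-phase and secreted inflammatory genes were lower in Tumor than in Prepuberty, 2 were higher and 8 did not pass. From Prepuberty to Tumor 17 of 59 listed genes passed, 15 of them lower and 2 higher, beside 6.03% of all genes (3.26% lower and 2.78% higher). The median log2 change was -0.98 over the listed genes and 0.09 over all genes. Haptoglobin, Hp, which binds free hemoglobin, was at 977 and 396 CPM in Prepuberty, 197 and 301 in DCIS and 2.15 and 27.3 in Tumor (log2 change -6.01, SE 1.13, edgeR adjusted p = 0.0352). The Toll-like receptor partner Cd14 was at 307 and 416, 109 and 142, and 54.1 and 32.0 CPM (-3.27, SE 0.45, edgeR adjusted p = 0.0248), and lactoferrin, Ltf, at 364 and 504, 288 and 404, and 16.6 and 101 CPM (-3.27, SE 0.69, edgeR adjusted p = 0.0413). For Hp, Cd14 and Ltf both Tumor libraries lay below both Prepuberty libraries, as they did for 17.5% of all genes tested. Complement factor Cfb fell by 5.62 (SE 0.64), the fibrinogen chains Fgb and Fgg by 7.62 and 5.93, Serpina3n by 4.46, Lbp by 2.55, complement C3 by 2.07 and Il6 by 6.27 on the log2 scale. Il1rn, the interleukin-1 receptor antagonist, rose by 2.69 (SE 0.57), and S100a9 rose by 5.16 from observed levels of at most 0.076 CPM to 2.24 and 3.99 CPM. The Prepuberty levels of S100a9 lay under the floor of 3 UMIs (0.228 CPM in Prepuberty 1 and 1.26 CPM in Prepuberty 2), so the size of its change is uncertain. In macrophage-like cells of the same libraries S100a9 was at 4.39 and 10.6 CPM in Prepuberty and 425 and 1968 CPM in Tumor, and its part in the epithelial value was not tested. Fibroblast markers in the epithelial-like cells summed to 182 and 262 CPM in Prepuberty and 52.6 and 73.6 CPM in Tumor, and their part in these changes was not tested. The makeup of the class differed between states: the hormone-sensing luminal-like cluster, of which Fgg was a leading gene, made up 293 of the 803 and 40 of the 153 cells of the class in Prepuberty, against 10 of 2708 and 39 of 1309 in Tumor. In secretory luminal-like cells only, a choice made after seeing the data, 12 listed genes passed, and Ltf, Serpina3n, Il6, Bcl3, Il1rn and S100a9 did not, while Fgb, Fgg, Hp and Cfb passed in the same direction. Lcn2, the siderophore binder lipocalin-2, was at 2980 and 4490 CPM in Prepuberty and 1374 and 316 CPM in Tumor and did not pass (-2.28, SE 0.72, edgeR adjusted p = 0.0936).

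From DCIS to Tumor, 2 of the 59 passed in epithelial-like cells, both lower, beside 1.17% of all genes (0.806% lower and 0.366% higher). An unadjusted edgeR p under 0.05 was found for 28 of the 59, beside 3225 of all 13392 genes. The 2 that passed were Cfb, at 2.34 and 3.19 CPM in DCIS and 0.373 and 0.194 in Tumor (log2 change -3.56, SE 0.59, edgeR adjusted p = 0.0445), and Lbp, at 53.0 and 45.4 and at 14.9 and 16.1 CPM (-2.05, SE 0.35, edgeR adjusted p = 0.0487). These counts moved with single libraries: without Prepuberty 1, Prepuberty 2, DCIS 1 or DCIS 2, each in turn, 0 passed, without Tumor 1 16 and without Tumor 2 14. From Prepuberty to Tumor, 0 passed without Prepuberty 1 or without Prepuberty 2, 3 without DCIS 1 or without DCIS 2, 19 without Tumor 1 and 23 without Tumor 2.

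In fibroblast-like cells of Tumor, 16 of 53 listed genes passed against DCIS, 15 of them lower, beside 13.2% of all genes (5.31% lower and 7.91% higher). The cytokine Il6 had 364 and 345 CPM in DCIS against 51.4 and 24.2 CPM in Tumor (log2 change -3.84, SE 0.56, edgeR adjusted p = 0.00923). Ptx3, the long pentraxin, had 3392 and 2575 CPM in DCIS against 198 and 22.1 CPM in Tumor (-5.28, SE 1.12, edgeR adjusted p = 0.0245), and complement C3 at 388 and 290 and at 81.2 and 86.3 CPM (-2.70, SE 0.40, edgeR adjusted p = 0.00987). Factors of the C/EBP and NF-kB families were among the genes that fell: 5 of 13 transcription factors and feedback genes passed, all lower, and Cebpd fell by 1.84 and Cebpb fell by 1.68 on the log2 scale. The receptors Lifr and Il17ra fell by 1.88 and 1.92, the cytokine Lif fell by 2.70, and apolipoprotein E, Apoe, fell by 3.98. The only listed gene that passed as higher was Il1rn, from 1.31 and 1.83 CPM in DCIS to 18.8 and 19.5 CPM in Tumor (2.90, SE 0.59, edgeR adjusted p = 0.0222). Without DCIS 1 or without DCIS 2 the count was 0, and without Tumor 2 it was 5. No T-antigen UMI was found in 638 of 642 and 1293 of 1293 fibroblast-like cells of DCIS but in only 172 of 246 and 158 of 285 of Tumor, and all 8 epithelial markers were detected in the class, at 58.9 and 17.5 CPM in Prepuberty, 85.8 and 69.9 in DCIS and 592 and 176 in Tumor. In fits without the cells that had such a UMI, 11 listed genes passed against DCIS, and Cebpd, Il17ra, Cd36, Ly96 and Osmr did not (log2 change of Cebpd -1.57 and of Il17ra -1.47).

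Against Prepuberty, 6 of 53 passed in fibroblast-like cells of Tumor, 4 of them lower, beside 9.12% of all genes (2.68% lower and 6.45% higher), and the fit with the replicate number as a block, which pairs these libraries, gave 12. Apoe fell by 4.36 and Cd36, Cebpd and Lifr by 5.79, 1.64 and 1.57 on the log2 scale, while Il11 rose by 2.92 (SE 0.60) and Il1rn by 4.42 (SE 0.61). Il6, at 133 and 95.5 CPM in Prepuberty, did not pass (-1.99, edgeR adjusted p = 0.0544). Without Prepuberty 1 the count was 2, without Prepuberty 2 1, without DCIS 2 3 and without Tumor 1 13. Without cells that had a T-antigen UMI it was 3, and Cd36, Cebpd and Lifr did not pass.

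**Figure D5:**
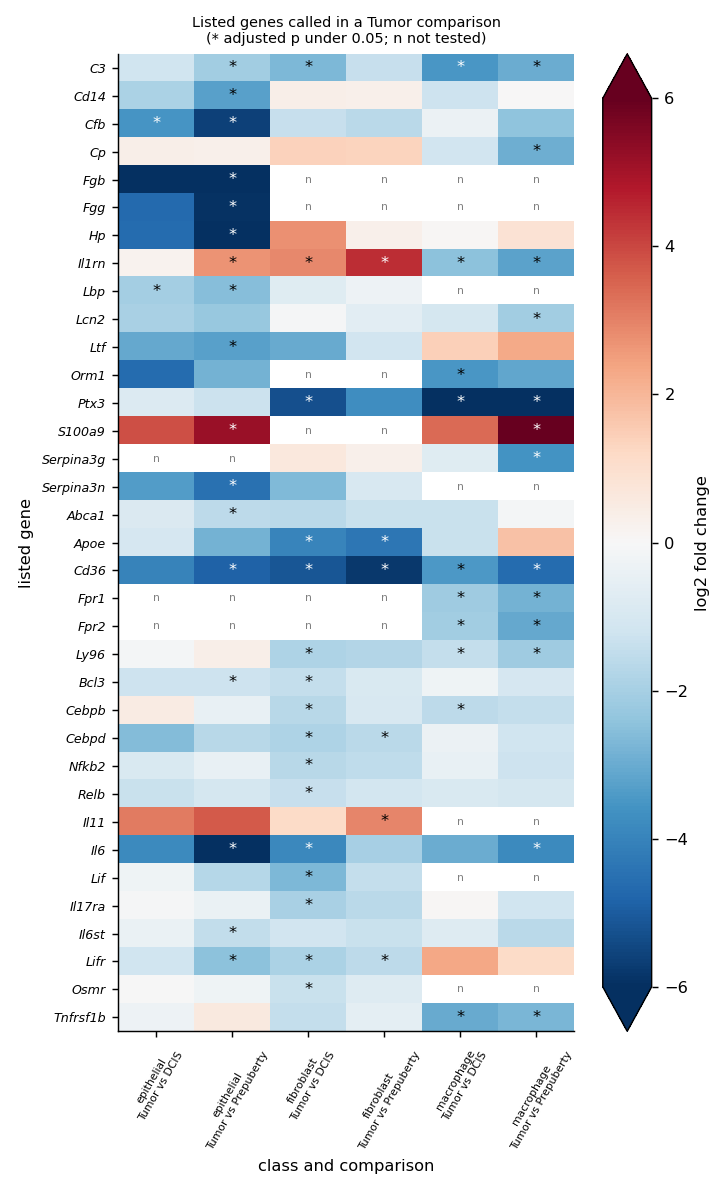
Log2 fold change (colour, saturated at 6 either way) of the 35 listed genes called in at least 1 Tumor comparison, for Tumor against DCIS and Tumor against Prepuberty in epithelial-like, fibroblast-like and macrophage-like cells; asterisks mark an edgeR adjusted p under 0.05 and n a gene not tested. Most asterisks lie on negative values (blue), and those on positive values (red) belong to Il1rn, S100a9 and Il11.

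In macrophage-like cells, Fpr1, Fpr2, Cd36 and Ly96, 4 of the 9 SAA receptors and binding partners tested, fell in Tumor against both other states, and the other 5 did not pass. Of 51 listed genes tested, 10 passed against DCIS, all lower, beside 6.42% of all genes (4.02% lower and 2.4% higher), and 13 against Prepuberty, 12 of them lower, beside 6.01% (4.08% lower and 1.93% higher). The formyl peptide receptor Fpr2 was at 103 and 195 CPM in Prepuberty, 61.4 and 72.3 in DCIS and 24.2 and 21.7 in Tumor (DCIS to Tumor -2.09, SE 0.38, edgeR adjusted p = 0.0133). Fpr1 was at 39.5 and 59.4 CPM in Prepuberty and 9.66 and 8.53 CPM in Tumor (Prepuberty to Tumor -2.82, SE 0.46, edgeR adjusted p = 0.00586), and it fell by 2.13 from DCIS to Tumor. The scavenger receptor Cd36 was at 388 and 363, 125 and 181, and 20.2 and 21.7 CPM (-3.43, SE 0.40, edgeR adjusted p = 0.00218), and Ly96, the partner of Toll-like receptor 4, at 101 and 136, 53.6 and 79.0, and 38.2 and 33.5 CPM (-1.43, SE 0.37, edgeR adjusted p = 0.0446). The tumor necrosis factor receptor Tnfrsf1b fell by 3.01, C3 by 3.5 and Il1rn by 2.48 from DCIS to Tumor on the log2 scale. Interleukin-1 beta, Il1b, had 590 and 416 CPM in Prepuberty, 1129 and 1030 in DCIS, then 2218 and 351 in Tumor and did not pass in any comparison. The calgranulin S100a9 rose by 6.76 (SE 1.57) from Prepuberty to Tumor, at 4.39 and 10.6 against 425 and 1968 CPM; the neutrophil markers, of which it is 1, summed to 160 and 422 CPM in Prepuberty, 321 and 53.1 in DCIS and 1051 and 6556 in Tumor, with 4 to 8 of the 8 markers detected and Cxcr2, Retnlg and Ly6g at 0 in Prepuberty 1 and DCIS 2, and their part in these results was not tested. Against DCIS, 4 passed without DCIS 1, 2 without DCIS 2, 20 without Tumor 1 and 6 without Tumor 2.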

How the data were processed

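Droplet-based single-cell RNA-seq libraries (6, with 2 for each of the states Prepuberty, DCIS and Tumor, grouped by the titles in the labels) were used; bulk samples were not analysed here. The deposited files hold UMI counts per gene and barcode, made by the authors with Cell Ranger 3.0.2, per the file headers, on mm10 with the transgene added, and filtered to cells by that tool. The study's methods name a newer kit version for Tumor 2 alone and another sequencer than the labels.

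Barcodes with under 200 genes (546) or over 10% mitochondrial UMIs (1045) were removed, and then the highest-scoring 691 by Scrublet (scanpy 1.11.5), at 0.75% per 1000 barcodes, since its automatic threshold marked only 50 of 22811. Cells were integrated and clustered with Seurat 5.3.0 (2000 variable genes without the SAA family, 20 dimensions, resolution 0.8) and a cluster was named by at least 3 markers in at least 25% of its cells at 2-fold or more. Levels are UMI sums scaled to 1000000 UMIs of the cell group (CPM), with exact Poisson intervals, and cells were thinned to 2000 UMIs for shares of cells; intervals cover counting error only. UMI sums per library and class were fitted over all genes with edgeR 4.0.16 (TMM, filterByExpr, quasi-likelihood test, Benjamini-Hochberg) under R 4.3.3, with 1 model over the 3 states; a call is an adjusted p under 0.05. The fit was tested on simulated data with 200 changed genes. Promoters came from RefSeq GRCm38.p6 and positions and transcripts from GENCODE.

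The members and the gene lists were chosen with earlier results of these data known. Named genes were the 10 listed genes with the largest change in each direction among those past the threshold, plus a fixed set of acute-phase genes, and the 10 genes most like each member. Same-numbered libraries were checked for pairing by the correlation of their deviations from the state means: it was 0.296, 0.122 and 0.172 in fibroblast-like cells, which by the rule of over 0.1 for every pair counts as paired, and 0.067, -0.076 and -0.018 in epithelial-like and 0.122, 0.0986 and 0.0265 in macrophage-like cells, which does not; nothing in the labels says that a number marks a shared animal or day. The main fits used the state alone in every class, also in fibroblast-like cells, and the pairing enters only the alternative with a replicate block. Alternatives were DESeq2 1.42.0, its size factors, no filter on low counts, a replicate block, other clustering and cell filters, another pseudocount and cell minimum for likeness, thinned sums, thinning to 1000 UMIs a cell and leaving out each library, plus 2 added after seeing the data.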

Additional observations from a re-analysis of the deposited data

Results flagged for a closer look

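Cells outside the epithelial, fibroblast and macrophage classes held members above the level of the pooled lymphocyte-like and dendritic-like cells of their own library. Endothelial-like cells of Prepuberty 2 had 62.1 CPM of Saa1 and 68.4 CPM of Saa2, against 0 UMIs (at most 7.21 CPM) in the reference, and 561 CPM of Saa3 against 52.8 CPM. Nearly all of the Saa1 and Saa2 lay in the cluster led by Gpihbp1, a capillary gene, whose leading genes also held Fabp4, Cfd and Car3, genes known from adipocytes, with 423 of the 428 Saa1 UMIs and 470 of the 472 Saa2 UMIs, and the other libraries of the class had at most 4.61 CPM of Saa1. Epithelial markers summed to 42.2 CPM in that cluster of Prepuberty 2 and to 43.1 to 201 CPM in the other libraries, and fibroblast markers to 406 and 361 CPM in Prepuberty, 59.5 and 94.6 in DCIS and 337 and 280 in Tumor (Lum, Col1a1 and Dpt at 0 in Tumor 2); their part in the Saa3 level was not tested. Myoepithelial-like cells had 166 CPM of Saa1 and 133 CPM of Saa2 in Prepuberty 1, where 0 reference UMIs allowed 68.5 CPM, 93.5 CPM of Saa1 and 165 CPM of Saa3 in Prepuberty 2, and 23.4 CPM of Saa1 in DCIS 2. Cells that met no class's markers had 945 CPM of Saa3 in Prepuberty 1 and 106 CPM in Prepuberty 2; 1 cluster of them had fibroblast markers at 6944 summed CPM in Prepuberty 1. What these values have to do with the neighbouring cell groups was not tested.

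The difference between DCIS and Prepuberty pointed in opposite directions in different cell groups, with no overlap of the libraries within a group, and the difference between groups was not tested. Such separation was common: in the whole epithelial-like class 22.4% of genes were higher and 31.8% lower in both DCIS than in both Prepuberty libraries, and 14.8% were higher in fibroblast-like cells; the share was not taken in the other groups. For Saa1, DCIS minus Prepuberty was 899 CPM in secretory luminal-like and 45.2 CPM in fibroblast-like cells and -102 CPM in myoepithelial-like cells. For Saa2 it was 462 CPM in secretory luminal-like and 2.23 CPM in fibroblast-like cells, -37.4 CPM in endothelial-like and -58.8 CPM in myoepithelial-like cells. The lack of overlap for Saa2 in secretory luminal-like cells rested on 1 cell, with 739 of the 888 UMIs of DCIS 1. The endothelial value rested on Prepuberty 2, at 68.4 CPM, since Prepuberty 1 was at 2.46 CPM and DCIS at 0.709 and 1.81 CPM. The myoepithelial value rested on Prepuberty 1, at 133 CPM, against 15.4 CPM in Prepuberty 2 and 0.771 and 6.52 CPM in DCIS.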

How the results depend on the processing

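With 2 libraries a state, counts of listed genes past the threshold depended on the test and on single libraries, while the members' directions against Tumor held under the alternatives run. DESeq2 gave 2 listed genes for epithelial-like DCIS against Prepuberty, 22 for Tumor against DCIS and 27 for Tumor against Prepuberty, 26 and 16 for the Tumor comparisons in fibroblast-like cells, and 1 for macrophage-like DCIS against Prepuberty. Without a filter on low counts the 3 comparisons, in the order DCIS against Prepuberty, Tumor against DCIS and Tumor against Prepuberty, gave 10, 27 and 32 in epithelial-like, 5, 30 and 24 in fibroblast-like and 6, 17 and 22 in macrophage-like cells. The replicate block gave 0 and 6 in the epithelial-like Tumor comparisons and 12 in fibroblast-like Tumor against Prepuberty. Fitting only the 4 libraries compared gave 0 and 4 in the epithelial-like Tumor comparisons and 1 in macrophage-like DCIS against Prepuberty, and clusters without integration gave 0 and 0 there and 6 and 2 in fibroblast-like cells. Epithelial-like Tumor against DCIS gave 4 at resolution 1.2, 4 at a mitochondrial limit of 5%, 5 without doublet removal and 17 in secretory luminal-like cells only; fibroblast-like Tumor against Prepuberty gave 3 without cells with a T-antigen UMI (both added after seeing the data), and thinned sums gave 5 in macrophage-like Tumor against DCIS. The share of all genes called under each setting is not set beside these counts or those with a library left out. They show only how the number of calls moved. Why the counts moved was not tested.

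Leaving out each library in turn gave, in the same order of comparisons, 0, 0 to 16 and 0 to 23 listed genes in epithelial-like cells, 0, 0 to 18 and 1 to 13 in fibroblast-like cells, and 0 to 1, 2 to 20 and 9 to 17 in macrophage-like cells, the 1 being without Tumor 1 or without Tumor 2. For epithelial members the log2 change ranged from 0.82 to 3.82, -14.80 to -11.23 and -13.18 to -8.24 for Saa1, 1.11 to 7.09, -14.77 to -13.33 and -13.27 to -7.17 for Saa2, and -2.38 to -1.05, -8.24 to -5.83 and -9.83 to -7.50 for Saa3. Saa3 ranged from -1.0 to 0.71, -9.38 to -7.58 and -9.27 to -8.15 in fibroblast-like cells, where DCIS against Prepuberty had no stable sign (-0.01 without Prepuberty 2, -1.0 without DCIS 2), and from -1.81 to -0.11, -7.46 to -5.93 and -8.60 to -6.70 in macrophage-like cells. Of the calls of named listed genes, C3 and Cd36 in macrophage-like Tumor against DCIS and 6 of 13 against Prepuberty (C3, Cd36, Cp, Fpr2, Ly96 and Tnfrsf1b) held under every alternative; none of the 19 in epithelial-like or 22 in fibroblast-like cells did.

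The log2 change of a member moved by more than its spread under these settings. In secretory luminal-like cells only, Saa3 from Prepuberty to DCIS was 0.32 and so changed sign, and from DCIS to Tumor Saa1 was -13.89 and Saa3 -8.45. Without integration, epithelial Saa1 and Saa2 from DCIS to Tumor were -11.24 and -12.07 and Saa3 from Prepuberty to Tumor was -7.41; with thinned sums Saa2 was -10.93 and -9.03 in the Tumor comparisons and Saa3 -8.70 from Prepuberty; without T-antigen cells, fibroblast Saa3 from Prepuberty to Tumor was -9.30. The epithelial group of highest level, among those with at least 10 cells, changed for Saa1 in Prepuberty 2 from the cells that met no subset's markers. It became secretory luminal-like, with 16.0% of epithelial UMIs at resolution 1.2 and 96.0% without integration. For Saa3 it changed from secretory luminal-like to hormone-sensing in Prepuberty 1 (46.1%) without doublet removal. From cells that met no subset's markers it changed to hormone-sensing (2.33%) in Tumor 1 without doublet removal and to cycling (30.8%) in Tumor 1 at 5% mitochondrial UMIs. In Prepuberty 2 it changed from those cells to secretory luminal-like (94.4%) without integration. Thinning to 1000 in place of 2000 UMIs a cell moved 7 shares of cells with a member's UMI, all lower: Saa3 in fibroblast-like cells was at 37.4%, 21.2%, 15.0% and 28.0% in the Prepuberty and DCIS libraries, with Tumor at 0.820% and 0.714%, Saa1 in secretory luminal-like cells at 13.9% in Prepuberty 1 and 5.73% in DCIS 1, and Saa3 in macrophage-like cells at 28.4% in Prepuberty 1. The number of cells limits Prepuberty 2, which had 33 secretory luminal-like cells.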
